A study of Homo sapiens with 4 samples.

Results

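The D-type cyclins and the kinases they switch on were followed through 5 genes, CCND1, CCND2, CCND3, CDK4 and CDK6, in a colorectal carcinoma line, HCT116, and a hepatocellular carcinoma line, HepG2. The clusters were taken by gene symbol. Every transcript cluster (the set of probes that the array reads as 1 transcript) carrying 1 of the 5 symbols was taken, which gave 6 of the 16098 clusters that have 1 symbol. CCND2 has 2 clusters and the other genes have 1 each, and the named clusters cover 14884 genes in all. A gene is called measured below where it has a named cluster. Both lines were grown with MP-HX, a hexane extract of Melicope ptelefolia leaves, or with its vehicle, DMSO. HCT116 received 60 µg/mL of MP-HX for 24 h and its vehicle arm is labelled 0.3% DMSO, while HepG2 received 78 µg/mL for 24 h and its vehicle arm is labelled 0.39%. Line, dose and labelled vehicle percentage therefore differ together. The study's methods give only 0.39% DMSO for control cells, with no separate value for HCT116. RNA of 3 cultures was pooled in equal amounts for each arm and hybridised to 1 Human Gene 2.0 ST array, so there are 4 arrays, 1 per group and no replicates. A difference between 2 arrays has no test. In RNA from whole cultures, fewer cells that express a gene and less of its RNA per cell cannot be told apart.

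The D cyclins are made when growth signals reach a cell in G1. Each of them binds CDK4 or CDK6 and activates it, and the active kinase phosphorylates the retinoblastoma protein RB1 and its relatives RBL1 and RBL2. Phosphorylated RB releases the E2F transcription factors, which turn on the genes of cyclin E, CDK2 and DNA replication. INK4 proteins such as the product of CDKN2A bind CDK4 and CDK6 and keep the D cyclins out. CCND1 is a frequent target of amplification and growth signalling in epithelial tumours, CCND2 and CCND3 are best known from lymphoid and other tissues, and CDK4 and CDK6 are the targets of a class of drugs used in breast cancer.

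The upstream sequences of CDK4 and CDK6 are shown because these kinases had unlike values with MP-HX. Windows of 250 bases before the annotated start came from RefSeq (GRCh38.p14) and matched 3 of the 5 genes. CCND1 and CCND2 had no window in the table. The first line is the CDK4 window, chr12:57752311-57752560 on the minus strand, with capitals on the E-box CACGTG, letters that MYC with its partner MAX and several other factors can bind. The second is the window of the more upstream of 2 annotated CDK6 starts, chr7:92836574-92836823 on the minus strand, with capitals on the GC box, GGGCGG or CCGCCC on the other strand, letters bound by SP1 and its relatives.
CDK4: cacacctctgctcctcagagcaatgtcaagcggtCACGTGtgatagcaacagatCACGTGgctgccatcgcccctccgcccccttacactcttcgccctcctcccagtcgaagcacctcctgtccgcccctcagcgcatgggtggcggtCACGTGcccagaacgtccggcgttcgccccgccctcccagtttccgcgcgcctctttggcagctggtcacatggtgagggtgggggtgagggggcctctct
CDK6: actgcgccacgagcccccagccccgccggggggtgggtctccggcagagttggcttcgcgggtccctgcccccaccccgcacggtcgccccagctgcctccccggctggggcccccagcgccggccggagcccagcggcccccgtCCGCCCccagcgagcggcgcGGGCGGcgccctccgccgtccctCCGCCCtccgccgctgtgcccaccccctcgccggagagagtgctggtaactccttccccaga
The CDK4 window held 3 E-boxes, starting 216, 196 and 101 bases before the gene's start, and 3 GC boxes. The CDK6 window held no E-box and 3 GC boxes, starting 105, 85 and 62 bases before the start, and its GC content was 80.0% against 65.6% for CDK4. The window of the second CDK6 start held none of the motifs. Of the 3 CCND3 windows, 1 held 5 GC boxes, 1 held 2 and 1 held none. Over all 34943 windows of this length in the table, searched on both strands, 6.32% held an E-box, 0.0801% held 3 or more, 42.5% held a GC box and 13.8% held 3 or more. An E2F site (TTTCCCGC, TTTCGCGC, TTTGCCGC or TTTGGCGC, in 2.77% of windows), a CRE (TGACGTCA, 1.63%), an AP-1 site (TGACTCA or TGAGTCA, 4.22%) and TATAAA (10.8%) were matched in none of the 6 windows. These are matches of letters and not measured sites.

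The hepatocyte markers separated the lines as labelled, whereas the colon markers as a list separated them little and VIL1 went the other way. With vehicle, the median log2 signal over 10 measured hepatocyte genes was 3.64 in HCT116 and 12.21 in HepG2. All 10 were at least 2-fold higher in HepG2, where 5.57% of all named clusters were. Of the 7 measured colon epithelium genes, 6 were lower in HepG2, with medians of 4.75 and 4.44. At least 2-fold lower were 2 of them, where 19.0% of all named clusters were. The median difference of the 7 genes, HepG2 minus HCT116, was -0.61, near the -0.42 of all named clusters. CDX2, an intestinal transcription factor, read 6.43 in HCT116 and 4.48 in HepG2, whereas VIL1, which encodes a protein of the microvilli, read 4.75 and 9.87. CD14, VWF and PECAM1, the only measured markers of blood cells, fibroblasts and endothelium, lay between 3.05 and 4.60. The array medians were 4.33 and 4.31 in HCT116 (MP-HX and vehicle) and 3.97 and 4.03 in HepG2. HepG2 was accordingly lower than HCT116 by a median log2 difference of -0.42 over the named clusters with vehicle and -0.40 with MP-HX, a shift that touches every comparison of the lines below.

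With vehicle, CCND1, CDK4 and CDK6 gave signal in the upper quartile of both lines, whereas CCND2 stayed around the array median. The probes of different clusters differ in number and sequence, so a gene was set against its array and against itself in the other line, and not against another gene. CCND1, the D cyclin of most epithelial cells, had a log2 signal of 10.17 in HCT116 and 8.92 in HepG2, above 97.5% and 93.6% of the named clusters of those arrays. CCND3 read 6.10 in HCT116 and 5.22 in HepG2, between the median and the upper quartile of each array and above 57.0% and 49.6% of the named clusters. The first CCND2 cluster (16746992) read 3.56 and 4.75, above 17.0% and 41.7%. The second CCND2 cluster (16760142) read 4.36 and 4.30, above 30.3% and 34.0%. The 2 clusters carry the same symbol and transcript but, as deposited, ordered the lines differently. With each array centred on its median both were higher in HepG2, by 1.47 and 0.22. An antisense gene, CCND2-AS1, overlaps CCND2 in RefSeq. The sources used here do not give the strand that each cluster reads. At signals this close to the array median a low transcript and background are hard to separate.

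Both kinases were bright in both lines. CDK4, which is expressed in most dividing cells, had a log2 signal of 10.64 in HCT116 and 9.56 in HepG2, above 98.6% and 96.6% of the named clusters. CDK6 had 8.48 in HCT116 and 8.89 in HepG2, above 86.6% and 93.4%. CDK6 and the first CCND2 cluster were thus the 2 clusters whose vehicle signal was higher in HepG2, and the other 4 were lower there as deposited, the second CCND2 cluster by a difference of -0.06 that became 0.22 with each array centred on its median.

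**Figure D1:**
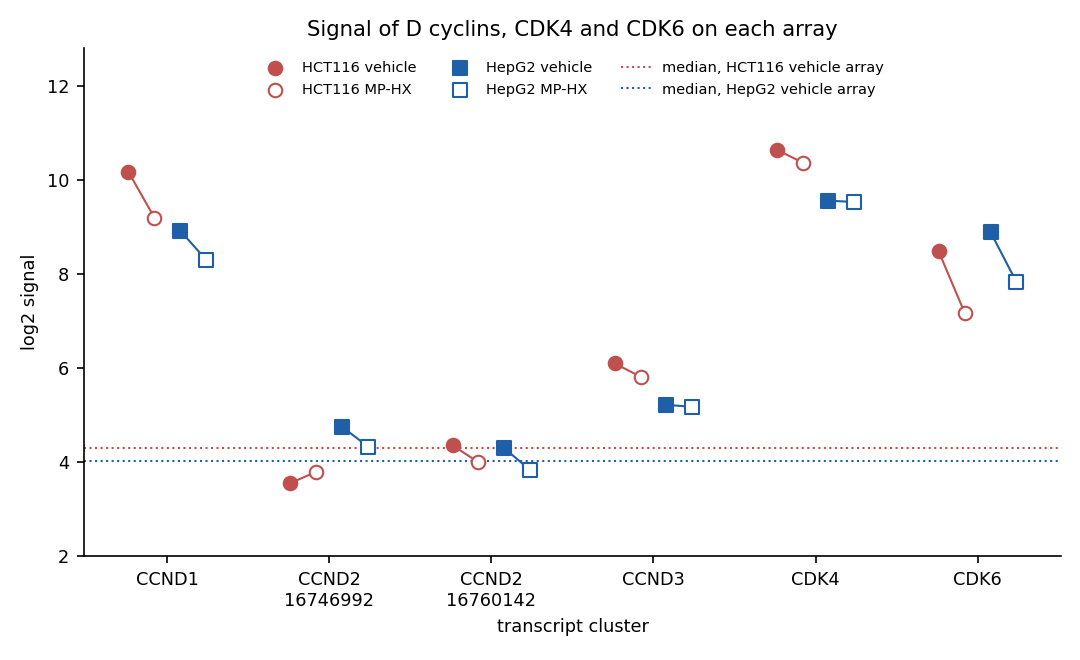
Log2 signal (vertical axis) of the 6 transcript clusters of the D cyclins, CDK4 and CDK6 (horizontal axis) on the 4 arrays, with filled points for vehicle, open points for MP-HX, a line joining the arrays of 1 line and dotted lines at the medians of the vehicle arrays, 4.31 and 4.03. CDK6 lies below its vehicle point in both lines (8.48 to 7.18 and 8.89 to 7.83), CDK4 stays near its own (10.64 to 10.37 and 9.56 to 9.53), and both CCND2 clusters lie around the medians.

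The lines were then compared gene by gene. Between the vehicle arrays the difference, HepG2 minus HCT116, was -1.25 for CCND1 (2.38-fold lower in HepG2), -1.08 for CDK4 (2.11-fold lower) and -0.88 for CCND3 (1.84-fold lower). It was 0.41 for CDK6 (1.33-fold higher in HepG2) and 1.19 for the first CCND2 cluster (2.28-fold higher), and -0.06 for the second. Of the 6 clusters, 2 were at least 2-fold lower in HepG2 and 1 was at least 2-fold higher, where 19.0% and 5.57% of all named clusters were. Between the MP-HX arrays the same differences were -0.90 for CCND1, -0.84 for CDK4, -0.64 for CCND3 and 0.65 for CDK6, and they were 0.53 and -0.17 for the CCND2 clusters. Every cluster had on the MP-HX arrays the sign it had on the vehicle arrays, as deposited. With 64 added to the linear signal the vehicle difference of the first CCND2 cluster was 0.26.

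Taken relative to the median shift of -0.42, the lines lay closer for CCND1, CDK4 and CCND3 and further apart for CDK6. The vehicle difference was then -0.83 for CCND1, -0.66 for CDK4, -0.46 for CCND3 and 0.83 for CDK6, so that CCND1 and CDK6 stood equally far from the shift on opposite sides. The CCND2 clusters were 1.61 and 0.36 above it. The robust SD of this difference over the named clusters was 0.64, and CCND1, CDK4, CDK6 and the first CCND2 cluster were further than that from the median.

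**Figure D2:**
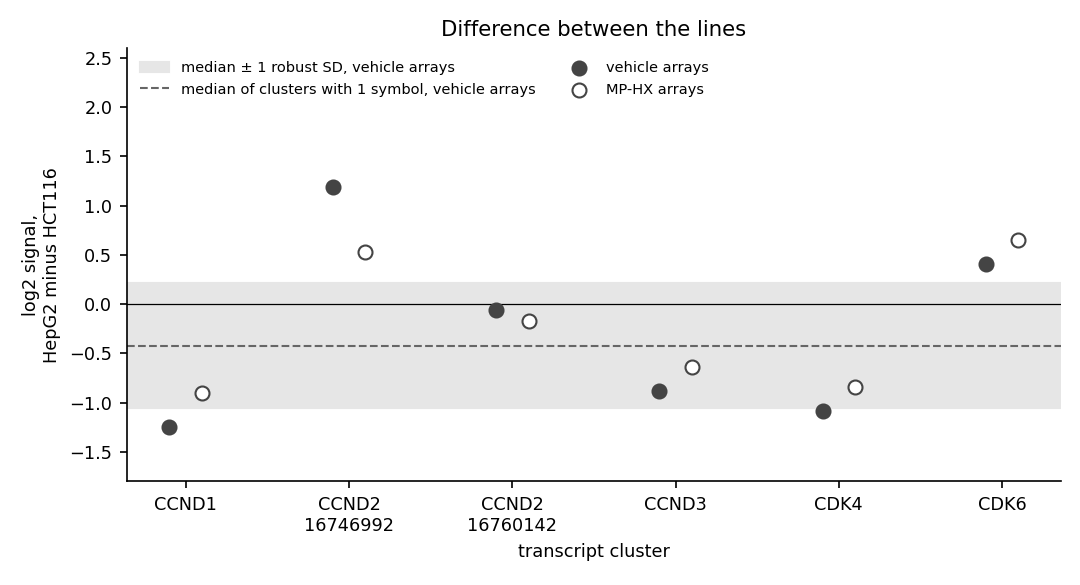
Difference in log2 signal between the lines, HepG2 minus HCT116 (vertical axis), for the 6 clusters (horizontal axis), with filled points for the vehicle arrays, open points for the MP-HX arrays, a dashed line at the median over clusters with 1 symbol (-0.42, vehicle arrays) and a grey band of 1 robust SD (0.64) on each side. CCND1 (-1.25) and CDK4 (-1.08) lie under the band with vehicle, and CDK6 (0.41 and 0.65) and the first CCND2 cluster (1.19 and 0.53) lie above it on both pairs of arrays.

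A fit of line and treatment over the 4 arrays has as its residual the difference between the responses of the lines. That residual holds no replicate of a group, so the SE and p below do not measure variation between cultures or arrays. With treatment as a block, the line effect was tested in this fit for every named cluster, with limma and Benjamini-Hochberg adjustment. It was -1.08 for CCND1 (SE 0.187, 1 residual degree of freedom, adjusted p = 0.0271), -0.96 for CDK4 (SE 0.176, adjusted p = 0.0292) and -0.76 for CCND3 (SE 0.176, adjusted p = 0.0436). It was 0.53 for CDK6 (95% interval 0.04 to 1.02, limma adjusted p = 0.0863) and 0.86 for the first CCND2 cluster (0.21 to 1.51, adjusted p = 0.0589), and -0.12 for the second (-0.58 to 0.35, adjusted p = 0.607). Thus 3 of the 6 clusters passed an adjusted p of 0.05, all lower in HepG2, where 25.9% of all named clusters passed in that direction and 6.01% passed as higher. These calls depended on the scaling. With each array centred on its median none of the 3 passed in limma (CCND1 -0.76, adjusted p = 0.0652, CDK4 -0.64, adjusted p = 0.083, CCND3 -0.44, adjusted p = 0.176), while CDK6 (0.85, adjusted p = 0.0437) and the first CCND2 cluster (1.18, adjusted p = 0.028) did, and the second changed sign (0.20).

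The CDK6 signal was lower with MP-HX than with vehicle in both lines. CDK6, which pairs with the D cyclins in early G1, had a log2 signal of 8.48 with vehicle and 7.18 with MP-HX in HCT116, and 8.89 and 7.83 in HepG2. The log2 fold changes were -1.30 (2.46-fold lower) and -1.06 (2.09-fold lower). In HCT116 1.37% of the named clusters had a lower value than CDK6, and in HepG2 1.84%. It was the single cluster of the 6 that was at least 2-fold lower, and it was so in each line, where 2.91% of the named clusters lay that far below vehicle in HCT116, 2.16% in HepG2 and 0.932% in both. No member was at least 2-fold higher, where 2.32% of the named clusters were in HCT116 and 3.13% in HepG2. With 64 added to the linear signal, which draws in changes of dim clusters, the values were -1.01 and -0.89, so that CDK6 lay under 2-fold in HepG2, and with quantile normalization as well they were -0.99 and -0.92.

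CDK4, the other kinase, stayed close to vehicle. Its log2 signal was 10.64 with vehicle and 10.37 with MP-HX in HCT116, and 9.56 and 9.53 in HepG2. The log2 fold changes were -0.27 (1.21-fold lower) and -0.03 (1.02-fold lower), and the second became 0.03 with each array centred on its median. Of the named clusters, 22.3% in HCT116 and 47.3% in HepG2 had lower values.

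CCND1 was the D cyclin with the largest difference from vehicle in both lines. Its log2 signal was 10.17 with vehicle and 9.20 with MP-HX in HCT116, and 8.92 and 8.30 in HepG2. The log2 fold changes were -0.97 (1.96-fold lower, just inside the 2-fold threshold) and -0.62 (1.54-fold lower). In HCT116 3.04% of the named clusters were lower, and in HepG2 6.72%. With MP-HX, CCND1 still lay above 93.3% and 88.4% of the named clusters of its arrays.

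CCND3 and CCND2 read closer to vehicle than CCND1 did in each line. CCND3 read 6.10 with vehicle and 5.82 with MP-HX in HCT116, and 5.22 and 5.18 in HepG2, for log2 fold changes of -0.28 and -0.04, the second turning to 0.02 after centring. The second CCND2 cluster read 4.36 and 4.0, and 4.30 and 3.83, for -0.36 and -0.47. The first CCND2 cluster read 3.56 with vehicle and 3.80 with MP-HX in HCT116 but 4.75 and 4.33 in HepG2, for 0.24 and -0.42. It was the only cluster of the 6 with values on opposite sides of vehicle in the 2 lines, and it read below the median of both HCT116 arrays.

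Of the 6 clusters, 5 read below vehicle in HCT116 (47.2% of all named clusters did), 6 in HepG2 (49.6%, with CDK4 and CCND3 above vehicle after centring) and 5 in both (27.7%). Their median log2 fold change was -0.32 in HCT116 and -0.44 in HepG2, where that of all named clusters was 0.00 in each. The HepG2 median fell between the 2 clusters of CCND2 (-0.42 and -0.47), a dim gene counted here by both. With 64 added to the linear signal those 2 values were -0.11 and -0.10. The median is therefore not a level shared by the members. The robust SD of a log2 fold change over the named clusters was 0.37 in each line. CDK6 and CCND1 were further than that from the median in both lines, both CCND2 clusters in HepG2 only, and CDK4 and CCND3 in neither.

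**Figure D3:**
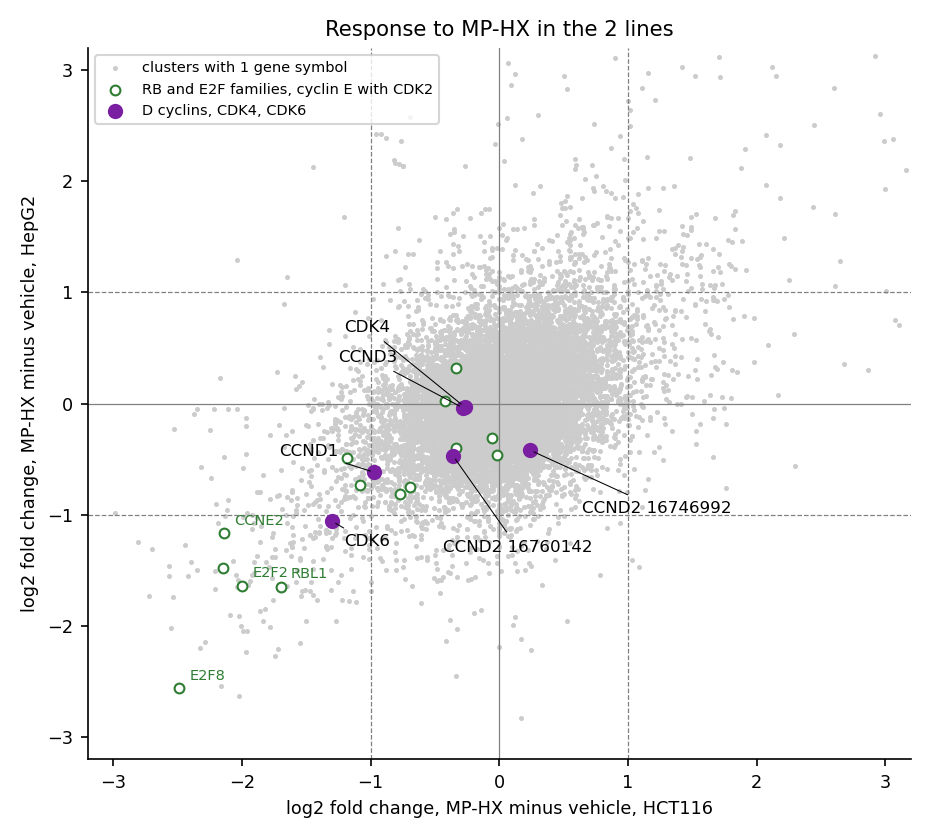
Log2 fold change with MP-HX in HCT116 (horizontal axis) against HepG2 (vertical axis), for clusters with 1 symbol (grey), the RB and E2F families with cyclin E and CDK2 (open green) and the 6 clusters of the D cyclins, CDK4 and CDK6 (purple), with dashed lines at 2-fold; 14 of the 16098 clusters lie outside the axes. CDK6 (-1.30 and -1.06) is the only purple point past 2-fold on both axes, CCND1 (-0.97 and -0.62) is next, and CDK4 and CCND3 overlap near -0.27 and -0.03.

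The effect shared by the lines came from the same fit and residual, with the line as a block, in limma with Benjamini-Hochberg adjustment over all named clusters. For CDK6 it was -1.18 (SE 0.176, 95% interval -1.67 to -0.69, unadjusted p = 0.00254, adjusted p = 0.203) and lower in both lines. For CCND1 it was -0.80 (SE 0.187, -1.31 to -0.28, limma adjusted p = 0.281), also lower in both. The intervals of the others included 0: -0.64 to 0.34 for CDK4, -0.65 to 0.33 for CCND3, and -0.74 to 0.56 and -0.88 to 0.05 for the CCND2 clusters. None of the 6 clusters passed an adjusted p of 0.05, as did 0 of the 16098 (0.00%), while 2040 had an unadjusted p under 0.05, of which 944 were lower (5.86%). After quantile normalization limma called 233 clusters, 131 of them lower (0.814%), and CDK6 was the single member among them (-1.20, adjusted p = 0.0467).

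The values of the kinases parted by the same amount in each line as deposited. CDK6 relative to CDK4, a difference of changes that no centring of an array can move, was -1.03 with MP-HX in HCT116 and -1.03 in HepG2, or 2.04-fold. Between the lines, CDK6 relative to CDK4 was 1.49 (2.81-fold) higher in HepG2 on the vehicle arrays and 1.49 higher on the MP-HX arrays. The second equality follows from the first and is no separate observation. With 64 added to the signal these values were -0.75, -0.86, 1.37 and 1.27, and after quantile normalization they were -1.03, -1.02, 1.58 and 1.59. CCND1 relative to CDK4 was -0.70 in HCT116 and -0.59 in HepG2, and CDK6 relative to CCND1 was -0.33 and -0.44. CCND3 relative to CDK4 was -0.01 in each line. None of these differences has a test.

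The responses of the lines, HepG2 minus HCT116, differed by 0.35 for CCND1 and by 0.24 for CCND3, CDK4 and CDK6 alike. The CCND2 clusters differed by -0.66 and -0.11. Over the named clusters the median was 0.00 and the robust SD 0.46, so the first CCND2 cluster was the only member further than 1 robust SD from it. With 64 added to the linear signal the responses of that dim cluster were 0.04 in HCT116 and -0.11 in HepG2, closer together than 1 robust SD. The differences between the responses were not tested, and the doses differed too.

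Around the D cyclins and their kinases, lists of the pathway were described by the same 2-fold threshold, beside the 2.91% and 2.16% of named clusters at least 2-fold lower, and none of their genes passed the shared-effect test. Downstream of the kinases, the RB family held 1 gene at least 2-fold lower in each line. RBL1, the relative of RB whose own gene is a target of E2F, read 8.92 with vehicle and 7.22 with MP-HX in HCT116, and 8.52 and 6.87 in HepG2, for log2 fold changes of -1.70 and -1.65. RB1 had -0.34 and -0.40, and RBL2, the relative that is prominent in resting cells, -0.06 and -0.31. The list's median was -0.34 in HCT116 and -0.40 in HepG2.

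Of 10 E2F and DP genes, 7 were measured. In HCT116 3 of them were at least 2-fold lower and their median was -0.69, and in HepG2 2 were, with a median of -0.49. E2F8, an atypical E2F that represses, read 9.25 with vehicle and 6.76 with MP-HX in HCT116 and 8.12 and 5.56 in HepG2, for -2.49 and -2.56. E2F2, an activator, had log2 fold changes of -2.00 and -1.64, E2F1 of -1.18 and -0.49, and TFDP1, the DNA-binding partner of the E2Fs, of -0.69 and -0.75. All 7 read below vehicle in HCT116 (47.2% of all named clusters did) and 5 did in HepG2 (49.6%). The highest value of the list was -0.02 in HCT116 and 0.32 in HepG2. E2F4, E2F5 and E2F6 are not analysed here.

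The cyclin E group, which takes over from the D cyclins at the end of G1, lay below vehicle throughout. All 4 genes were measured and read below vehicle in both lines, where 27.7% of all named clusters did. In HCT116 3 of them lay at least 2-fold below vehicle, and in HepG2 2 did. The list's medians were -1.61 and -0.99. CDC25A, the phosphatase that activates CDK2, read 8.37 with vehicle and 6.22 with MP-HX in HCT116 and 7.73 and 6.25 in HepG2, for -2.15 and -1.48. CCNE2 had -2.14 and -1.17, CDK2 -1.08 and -0.73, and CCNE1 -0.77 and -0.81. CDK6 was thus further below vehicle than CDK2 and CCNE1 in both lines, and less far than CDC25A and CCNE2.

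**Figure D4:**
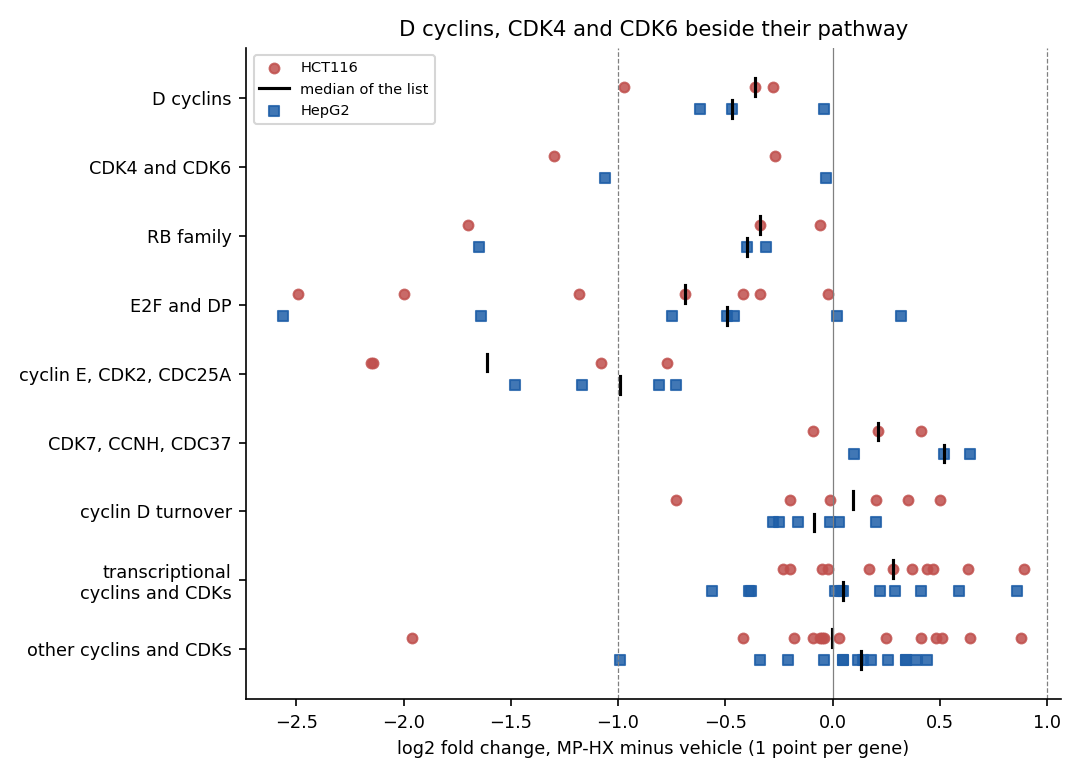
Log2 fold change with MP-HX (horizontal axis), 1 point per gene at its brightest cluster, for the D cyclins, CDK4 with CDK6 and the lists around them (vertical axis), in HCT116 (red circles) and HepG2 (blue squares), with black bars at the medians of lists of 3 or more genes and dashed lines at 2-fold. The cyclin E list has the lowest medians (-1.61 and -0.99), and the activating kinase list lies above vehicle (0.21 and 0.52). The D cyclin medians (-0.36 and -0.47) are the values of the second CCND2 cluster, which is dim. CCND1 has -0.97 and -0.62, and CCND3 has -0.28 and -0.04.

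Upstream of the kinases, the genes that assemble and activate them lay near or above vehicle. CDK7, which phosphorylates the activating loop of CDK4 and CDK6, read 8.75 with vehicle and 9.16 with MP-HX in HCT116 and 7.5 and 8.02 in HepG2, for 0.41 and 0.52. Its cyclin, CCNH, had 0.21 and 0.10. CDC37, the co-chaperone that hands CDK4 and CDK6 to HSP90, had -0.09 in HCT116 and 0.64 in HepG2. None of the 3 was 2-fold apart in either line, and MNAT1, HSP90AA1 and HSP90AB1 are not analysed here. Of the listed inhibitors of these kinases only CDKN2A has a cluster named by the annotation table used here, and it read 6.19 with vehicle and 6.13 with MP-HX in HCT116 and 4.66 and 4.94 in HepG2. CDKN2B, CDKN2C, CDKN2D, CDKN1A, CDKN1B and CDKN1C are not analysed here.

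The turnover genes of the D cyclins gave no value past 2-fold. Of 8 genes, 6 were measured, with medians of 0.10 in HCT116 and -0.08 in HepG2. CUL4B, a cullin scaffold of ubiquitin ligases, had -0.73 and -0.28. GSK3B, a kinase that marks cyclin D1 for export and degradation, had 0.50 and -0.16. FBXW8, an F-box protein, had 0.35 and 0.20, and AMBRA1, the substrate receptor through which D cyclins are ubiquitinated, -0.20 and -0.25.

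Transcription factors that can act on the D cyclin genes read mostly above vehicle in HepG2. Of 10 genes, 7 were measured, and 1 was at least 2-fold higher in HCT116 and 4 were in HepG2, with medians of 0.32 and 1.00 (2.32% and 3.13% of all named clusters were that far above vehicle) and none at least 2-fold lower. JUN, a subunit of AP-1, read 8.09 with vehicle and 10.27 with MP-HX in HCT116 and 7.59 and 9.92 in HepG2, for 2.18 and 2.33. FOSL1, a partner of JUN, had 0.60 and 2.15. EGR1, an immediate early factor, read 9.00 and 8.19 in HCT116 but 6.40 and 9.24 in HepG2, for -0.81 and 2.84, and a second, dimmer EGR1 cluster had -0.79 and 0.55. MYC, a factor that binds E-boxes, read 10.61 and 10.13 in HCT116 and 8.94 and 9.94 in HepG2, for -0.48 and 1.00.

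Cyclins and kinases of transcription, and a list of further ones that leaves out those of S phase and mitosis, mostly stayed near vehicle. None of the 11 cyclins and CDKs of transcription was 2-fold apart in either line (medians 0.28 and 0.05), with the largest values for CDK19, a kinase of the Mediator complex (0.89 and -0.39), CCNL1 (0.44 and 0.86), CCNL2 (0.63 and 0.41) and CCNT1, the cyclin of CDK9 (-0.02 and 0.59). Of 14 further cyclins and CDKs, HCT116 had 1 at least 2-fold lower and HepG2 none (medians -0.01 and 0.13). That gene was CCNF, an F-box cyclin of G2, which read 9.18 with vehicle and 7.22 with MP-HX in HCT116 and 7.26 and 6.27 in HepG2, for -1.96 and -0.99. CCNG2, a cyclin of arrested cells, had 0.88 and 0.39, CCNI 0.64 and 0.44, and CDK10 0.51 and 0.18.

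Genes of microRNAs that are known to target D cyclins or CDK6 were dim. Of 11 genes, 10 were measured, with vehicle medians of 4.25 in HCT116 and 3.70 in HepG2, both below the array median. Their median log2 fold change was -0.10 in HCT116 and -0.26 in HepG2. At least 2-fold higher in HepG2 was 1 of the 10, where 3.13% of all named clusters were. That gene, MIR29A, read 4.20 with vehicle and 3.72 with MP-HX in HCT116 and 2.33 and 3.55 in HepG2, below the median of each array. MIR107 had -0.06 and -0.77 at its brighter cluster and 0.36 and -1.31 at the other, MIR15A -0.50 and -0.49, and MIR449A -0.18 and -0.49. The array reads the gene's transcript and not the mature microRNA.

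The patterns over the 4 arrays were also compared, by the Euclidean distance of the log2 values after each gene was centred on its own mean, over 11613 genes above the array median on at least 1 array. CDK6 had few genes near it. Its nearest was ARHGAP18, at a distance of 0.200, with log2 signals of 9.42 and 7.95 in HCT116 (vehicle and MP-HX) and 9.94 and 8.76 in HepG2, followed by TMEM97 (0.278) and DUSP19 (0.295). CDK4 lay nearest to SMS, which encodes spermine synthase (0.032), HMGXB4 (0.037) and LINC01235 (0.041). CCND1 lay nearest to EXOSC2, a subunit of the RNA exosome (0.032), MIR4534 (0.067) and RAD18, a ubiquitin ligase of DNA damage tolerance (0.083). CCND3 lay nearest to ANKRD52 (0.028), NRDE2 (0.032) and BAG4 (0.048).

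The CCND2 clusters had different neighbours. The first lay nearest to LRRN4 (0.081), MPZL2 (0.082) and ZFP82 (0.100), and the second to MIR3130-1 (0.030), LINC01551 (0.037) and DDN (0.038). Among the members themselves CDK4 and CCND3 were closest, at 0.200, with 221 genes nearer to CDK4 than CCND3 was and 312 nearer to CCND3 than CDK4 was. CDK4 and CDK6 were 1.81 apart, with 10231 genes nearer to CDK4 than CDK6 was. The distance is a description over 4 arrays and says nothing of shared control.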

How the data were processed

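The deposited table holds the authors' log2 values, rounded to 2 decimals, for the transcript clusters of 4 arrays, each of RNA pooled from 3 cultures. The submitters' processing notes name GCOS, Affymetrix Expression Console and Transcriptome Analysis Console, and the sources used here do not say how the values were normalized. Values were used as deposited. Rounding limits a fold to within 0.7 percent, and the number of arrays limits the precision.

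A table of GEO's platform annotation named 16098 of 48226 clusters with 1 symbol, 0 with several and left 32128 unnamed here. Genes with more than 1 cluster (779) were given by the brightest. The log2 fold change is MP-HX minus vehicle within a line, set against the 2-fold threshold of the methods with no test. The shared MP-HX effect and the line effect come from 1 additive fit of line and treatment in limma 3.58.1 (R 4.3.3). It has 1 residual degree of freedom and Benjamini-Hochberg adjustment over the named clusters. The steps were run on simulated data whose changes were larger than those of the members and equal in both lines. Such a run does not show that changes of the members' size would be found. The residual of the fit is the difference between the responses of the lines, and limma adds a variance shared over clusters, for 4.00 degrees of freedom in all. The robust SD is the scaled median absolute deviation over named clusters.

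The members and the 17 gene lists (126 genes) were chosen with earlier results of these data known. The genes named were the members, the measured genes of the RB, cyclin E, activating kinase and inhibitor lists, of each other list up to 4 genes furthest from vehicle, and the 3 nearest patterns of each member. Of the marker lists, values are given for CDX2 (chosen after its values were seen), VIL1, CD14, VWF and PECAM1 only. Alternatives were quantile normalization, median centring, 64 or 16 added to the linear signal, other sets of clusters, other folds, a prior variance with a trend and no line block. CDK6 relative to CDK4 and the alternatives for it were added after seeing the data. Promoter windows came from RefSeq (GRCh38.p14), and no coordinate of a cluster is given, since the sources name no build for the array's design.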

Additional observations from a re-analysis of the deposited data

Results flagged for a closer look

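The first CCND2 cluster read above vehicle in HCT116 (0.24) and below it in HepG2 (-0.42), a difference between the responses of -0.66, which was not tested. With 64 added to the linear signal the responses were 0.04 and -0.11. The cluster was looked at again because the lines lay on opposite sides of vehicle. So did 18 of the 66 measured pathway list genes at their brightest cluster, none of them tested, 8 of which are named in the report. Of all named clusters, 47.2% read below vehicle in HCT116, 49.6% in HepG2 and only 27.7% in both. A value below vehicle in 1 line only was therefore common. The share of all named clusters on opposite sides of vehicle was not computed, so the count is not read as a trait of the lists. For GSK3B, which marks cyclin D1 for degradation, the difference was -0.66 (0.50 in HCT116 and -0.16 in HepG2), and for CDK19, a Mediator kinase, it was -1.28 (0.89 and -0.39). It was positive for the transcription factors EGR1 at 3.65 (-0.81 and 2.84) and MYC at 1.48 (-0.48 and 1.00), and for MIR29A at 1.70 (-0.48 and 1.22), whose signal was below every array's median. It was 0.73 for CDC37, the kinase co-chaperone (-0.09 and 0.64), 0.61 for CCNT1, the cyclin of CDK9 (-0.02 and 0.59), and 0.34 for the inhibitor gene CDKN2A (-0.06 and 0.28). The robust SD of the difference over the named clusters was 0.46. Line, dose and labelled vehicle percentage cannot be told apart in these differences.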

How the results depend on the processing

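Of 213 recomputed values under alternative settings, 182 were counted as unchanged. A difference was so counted if it moved by less than 1 robust SD of its kind, whether or not it crossed 2-fold. A limma effect had to keep its sign and its side of an adjusted p of 0.05, and a count had to stay within 1.5-fold. The 182 thus include CDK6 in HepG2 falling under 2-fold with 64 added (-1.06 to -0.89) and CDK4 in HepG2 changing sign after centring (-0.03 to 0.03). With 64 added to the linear signal, the second CCND2 cluster in HepG2 went from -0.47 to -0.10, also -0.10 with quantile normalization as well, and the vehicle difference of the first CCND2 cluster from 1.19 to 0.26. For the shared MP-HX effect, quantile normalization gave 233 calls in place of 0 and CDK6 at -1.20 (limma adjusted p = 0.0467, against 0.203 as deposited), and without the line as a block CDK6 had an adjusted p of 1. For the line effect, limma called 5138 clusters as deposited, 0 with 64 added, 11902 over all clusters of the table and 3199 after centring. The line effect of CCND1 no longer passed with 64 added (-0.97) or after centring (-0.76), that of CDK4 with 64 added (-0.90), after centring (-0.64) or quantile normalization (-0.66), and that of CCND3 under the same settings (-0.33, -0.44 and -0.38). CDK6 passed after centring (0.85) and quantile normalization (0.92), and the first CCND2 cluster passed there (1.18 and 1.21) and among clusters above an array median (0.86). The second CCND2 cluster changed sign after centring (0.20) and quantile normalization (0.20). At least 2-fold apart were 841 clusters in HCT116 and 851 in HepG2, against 2703 and 2740 at 1.5-fold, 212 and 211 at 3-fold, 345 and 277 with 64 added, and 1725 and 1863 over all clusters. The centring acts on the whole-array shift between the lines, and the cause of the other moves was not tested. No replicate could be left out, since each group has 1 array. MP-HX and vehicle were paired by line through the block of the fit, and the labels carry no replicate numbers for another pairing. CCND2 lay near the array medians, where signal over background limits what can be read.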
